A study of Mus musculus with 19 samples.

Results

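Mouse Chr3 was measured by aCGH, a method that hybridizes differently labeled sample and control DNA to the same array and reads relative copy number from the ratio of the colors at each probe. The chromosome is represented by every probe that is not a control and is placed on Chr3 of the mm9 build, which gave 13043 probes of 234018 on all chromosomes. They lay between positions 3005504 and 159598032 of Chr3, were 60 bases long and had a median spacing of 8644 bases. Tumors were 4 hepatocellular adenomas (HCA) and 6 hepatocellular carcinomas (HCC), and each of the 9 mice also gave 1 unaffected liver, all on an array of their own. All mice, including the sources of the unaffected livers, were Mad2(f/f) and carried AlbuminCre, which deletes floxed alleles in developing hepatocytes. The deletion may be incomplete in liver tissue, and immune cells in the liver keep the floxed alleles. The HCAs and their livers came from female mice aged 12 to 16.9 months, of which 2 were p53(f/f), mice 2430 and 6199, and 2 were p53(f/+), mice 5884 and 5901. The HCCs and their livers came from 5 mice aged 12.3 to 16.2 months that were labeled p53ser246+, and mouse 6240 gave 2 of the 6 HCCs. Female mice gave 3 of the HCCs and male mice the other 3. HCA and HCC shared no p53 genotype, so tumor type and genotype cannot be told apart. The labels give the alleles of the strain as Mad2flox, p53flox and AlbuminCre in the HCA mice and Mad2flox, p53ser249 and AlbuminCre in the HCC mice. The control DNA came from wild type liver of the opposite sex.

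Mad2 is a component of the spindle assembly checkpoint, which holds cells in mitosis until the chromosomes are attached to the spindle. Without the checkpoint, chromosomes can be passed on unequally and whole chromosomes are lost or gained. An aCGH ratio is an average over the cells of a sample. Fewer cells with a loss and fewer copies lost in each cell therefore cannot be told apart, and tumor tissue also holds immune, vascular and other cells. Mouse chromosomes have the centromere at one end, so that Chr3 has a single long arm and its far end is called the distal end here.

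Chr3 carries 983 protein-coding genes in RefSeq (assembly GRCm38.p6), which was used for gene order only, because the probe positions are on another build. In that order it holds the adjacent fibrinogen genes Fgg, Fga and Fgb, whose products form clots, and the alcohol dehydrogenases Adh1, Adh4 and Adh5. Further liver genes of the chromosome are Mttp, which loads lipid onto lipoproteins, and Acadm, an enzyme of fatty acid oxidation. Among the genes known from tumors are Pik3ca, Fbxw7, Nras, Notch2, Lef1 and Tet2. The last 12 protein-coding genes of the chromosome are, in order, Lrriq3, Negr1, Zranb2, Ptger3, Cth, Ankrd13c, Srsf11, Lrrc40, Lrrc7, Depdc1a, Rpe65 and Wls. The arrays were read by chromosome position, and no value was assigned to a single gene.

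In every array, 97.8% to 99.9% of the Chr3 probes passed the software's test for signal over background in Cy5 and Cy3, and the noise of single probes was 0.18 to 0.40 on the log2 scale, highest in the liver of mouse 6240. X gives a measured scale for a difference of 1 copy, since the control was of the opposite sex. The X ratio was 0.95 ± 0.058 (SD, n = 6) in the livers of females and −0.95 ± 0.064 (SD, n = 3) in those of males, which fixes the direction of the ratio. HCC 6240-2 stood apart, with an X ratio of 0.32, whereas its own liver was at 1.04 and the other tumors of females were between 0.73 and 1.07. The difference in the Chr3 ratio between HCC and unaffected liver is therefore also given without it.

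Chr3 was lower in both types of tumor than in unaffected liver, and the group means were lower along its whole length. The mean Chr3 ratio of the HCAs was −0.25 ± 0.053 (SD, n = 4). That of the HCCs was −0.13 ± 0.096 (SD, n = 6), and unaffected livers had a mean of 0.0089 ± 0.035 (SD, n = 9). All 16 bins of 10 Mb were lower in HCA and all 16 were lower in HCC, each past the threshold of an adjusted p of 0.05. Of the 257 autosomal bins, 32.7% were called lower in HCA and 22.2% in HCC. The bins of HCC were less firm, and their calls were lost in some of the settings given below. The largest departure from an even profile was at the distal end of the HCA of mouse 5884. Smaller ones were seen in this tumor and in the HCC of mouse 6487, largest in the first bin but not confined to it.

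The HCAs had Chr3 ratios of −0.28 in mouse 2430, −0.18 in mouse 5884, −0.26 in mouse 5901 and −0.30 in mouse 6199. Unaffected livers ranged from −0.050 to 0.071 with a median of 0.0097, so that 4 of 4 HCAs lay below every liver and the groups did not overlap. Such a separation was not particular to Chr3. Every HCA lay below every liver in 23.3% of the 257 autosomal bins of 10 Mb. HCA was 0.26 lower on the log2 scale (exact two-sided permutation test, p = 0.0014, the smallest p that 715 assignments of the samples can give, adjusted p = 0.0044 over the 19 autosomes). Of the 19 autosomes, 36.8% were called lower in this comparison, and Chr3 had the lowest difference among them. The difference amounted to 27.6% of the X ratio of female livers. Within scan days, HCA was 0.21 lower on the first day (2 HCAs against 3 livers) and 0.30 lower on the second (2 against 2). The scale of all ratios depended on the background correction. Under normexp, a model of signal and background, HCA was 0.13 lower and 3 of 4 HCAs lay below every liver, while the X ratio of female livers was 0.31, so that the loss was 41.3% of it. Without any correction HCA was 0.14 lower, or 25.9% of an X ratio of 0.54, and the call held in both cases.

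The HCCs had Chr3 ratios of −0.18 for 6240-4 and −0.033 for 6240-2, the tumors of mouse 6240, and of −0.12 in mouse 6487, −0.020 in mouse 6565, −0.16 in mouse 6602 and −0.28 in mouse 6642. Thus 4 of 6 HCCs lay below every liver, and 6240-2 and 6565 lay within the range of the livers. HCC was 0.14 lower than unaffected liver (exact two-sided permutation test, p = 0.0012, adjusted p = 0.011), or 14.7% of the X ratio of female livers. In this comparison 21.1% of the autosomes were called lower, and 3 autosomes had a lower difference than Chr3. Without 6240-2 HCC was 0.16 lower (adjusted p = 0.0095 by the same permutation test). The call in HCC was less firm than that in HCA. It was lost when scan days were kept apart (0.16 lower, exact permutation within days, adjusted p = 0.075). The same permutation test lost it in females alone (0.11 lower, adjusted p = 0.090) and with normexp (0.062 lower, adjusted p = 0.22). It was also lost, narrowly, without centring of the arrays (0.12 lower, exact permutation test, adjusted p = 0.053). Fewer assignments were possible within scan days and in females alone, and 0 of 19 autosomes were called in either. The call in HCA held within scan days (0.25 lower, exact permutation within days, adjusted p = 0.029). It also held in females alone (0.25 lower, exact permutation test, adjusted p = 0.015). Why the call in HCC was lost was not tested. With limma, a linear model, and the scan day as a block, the call in HCC held (0.15 lower, adjusted p = 0.011). As a share of the X ratio of female livers, the HCC difference was 19.99% under normexp and 16.3% without background correction. Within days, HCC was 0.14 lower on the second day (1 against 2) and 0.16 lower on the third (5 against 4).

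**Figure D1:**
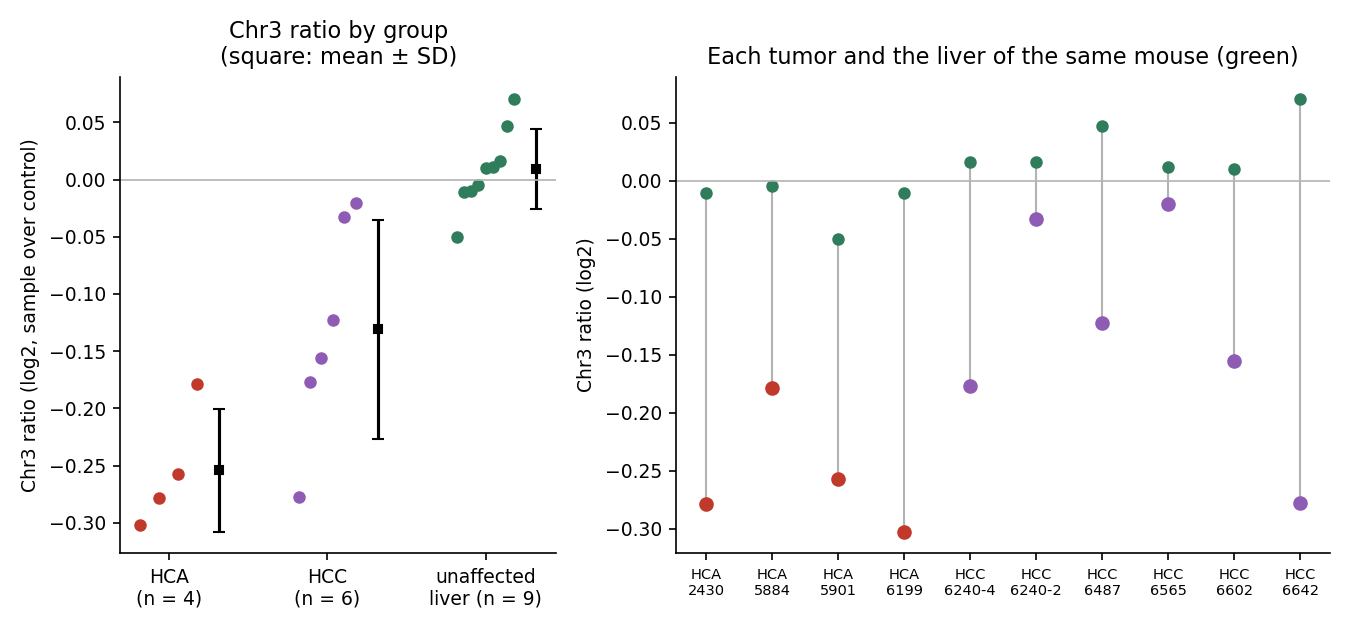
Chr3 ratio of each array on the log2 scale. On the left, points are samples and squares are group means with SD (n = 4, 6 and 9). On the right, each tumor (red HCA, purple HCC) is joined to the unaffected liver of its own mouse (green). The 4 HCAs sit between −0.30 and −0.18, below every liver, and 2 HCCs sit within the range of the livers.

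The HCCs were higher on Chr3 than the HCAs by 0.12 (exact two-sided permutation test, p = 0.048, adjusted p = 0.23), a difference that did not pass the threshold after adjustment over the autosomes. In this comparison 5.26% of the autosomes were called higher, and 5 of 6 HCCs lay above every HCA, the exception being the HCC of mouse 6642. The same difference passed with limma, which pools the spread over the 3 groups (SE 0.043, adjusted p = 0.036). It did not pass with the scan day as a block in limma (0.10, adjusted p = 0.22). By exact permutation, HCC was 0.066 higher under normexp (adjusted p = 0.54) and 0.052 higher without background correction (adjusted p = 0.51). The X ratio was also smaller in these settings. On the only scan day with both tumor types, 1 HCC was 0.16 higher than the mean of 2 HCAs. The unaffected livers differed in the same direction. Their Chr3 ratios were −0.050 to −0.0044 in the HCA mice and 0.0097 to 0.071 in the HCC mice. Against the own liver the tumor means were closer, at −0.24 in HCA and −0.16 in HCC, and this difference was not tested. On Chr3, HCC was higher than HCA in all 16 bins of 10 Mb, by 0.10 to 0.16. By exact permutation, 0 of the 257 autosomal bins passed in either direction. An unadjusted p under 0.05 was found in 51 of the 257 and in 8 of the 16 on Chr3. limma called 54 of the 257 and 7 of the 16.

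Every tumor was below the unaffected liver of its own mouse. Tumor minus own liver was −0.27 in HCA 2430, −0.17 in HCA 5884, −0.21 in HCA 5901 and −0.29 in HCA 6199, a mean of −0.24 ± 0.054 (SD, n = 4). For the HCCs it was −0.19 in 6240-4, −0.049 in 6240-2, −0.17 in 6487, −0.032 in 6565, −0.17 in 6602 and −0.35 in 6642, a mean of −0.16 ± 0.11 (SD, n = 6). On the linear scale the change against the own liver was between −18.3% and −11.4% in HCA and between −21.4% and −2.18% in HCC. The largest difference of all tumors was that of HCC 6642, in a mouse whose liver had the highest Chr3 ratio of the livers, 0.071. The smallest differences, those of 6565 and 6240-2, were similar in size to the SD among livers, which was 0.035. With the own liver as the block, the exact test of sign flips gave p = 0.125 for HCA and p = 0.0625 for HCC, which are the smallest p-values that 4 and 5 mice allow.

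The pair of HCCs from mouse 6240 differed from each other although they shared the mouse and the scan day. Chr3 was 0.14 lower in tumor 6240-4 than in 6240-2. The difference held in 16 of 16 bins and lay between 0.12 and 0.16 in each, with an SD over the bins of 0.013. There was 1 array for each tumor, so this difference has no replicate check.

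The profile along the chromosome was flat. Bins of 10 Mb were numbered from 1 at the centromere side to 16 at the distal end, and each held between 537 and 1183 probes. In HCA, the lowest of the 16 bin means was −0.31 ± 0.065 (SD, n = 4) in bin 8, at 70 to 80 Mb, and the highest −0.22 ± 0.11 (SD, n = 4) in bin 16, from 150 Mb to the end. Relative to unaffected liver, HCA was lower by 0.30 in bin 8 and by 0.23 in bin 16, the largest and the smallest of the differences. The median over the bins was −0.26 and their SD 0.018, beside a median of 0.028 over all 257 autosomal bins.

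All 16 bins passed in HCA, each with an adjusted p of 0.0039 by the exact permutation test over the 257 autosomal bins, of which 32.7% were called lower. In all 16 bins every HCA lay below every liver, which held for 23.3% of the autosomal bins. The gap between the highest HCA and the lowest liver was 0.029 in bin 16 and up to 0.16 in the others, and the HCA nearest to the livers in bin 16 was that of mouse 5884, at −0.063.

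In HCC, the lowest bin mean was −0.17 ± 0.072 (SD, n = 6) in bin 1 and the highest −0.11 ± 0.11 (SD, n = 6) in bin 15. Relative to unaffected liver, the differences ran from −0.16 in bin 1 to −0.12 in bin 13, with a median of −0.14 and an SD over the bins of 0.0099. The median over all autosomal bins was 0.013. All 16 bins passed (exact permutation test, adjusted p between 0.015 and 0.027), whereas 22.2% of the autosomal bins were called lower. No bin of Chr3 had every HCC below every liver (0.778% of the autosomal bins did), because 4 HCCs lay below every liver in 12 bins and 5 did so in the other 4. The share of Chr3 bins past the threshold fell to 0% within scan days, in females alone and under normexp, and to 6.25% without centring. With the scan day as a block in limma it stayed at 100%.

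**Figure D2:**
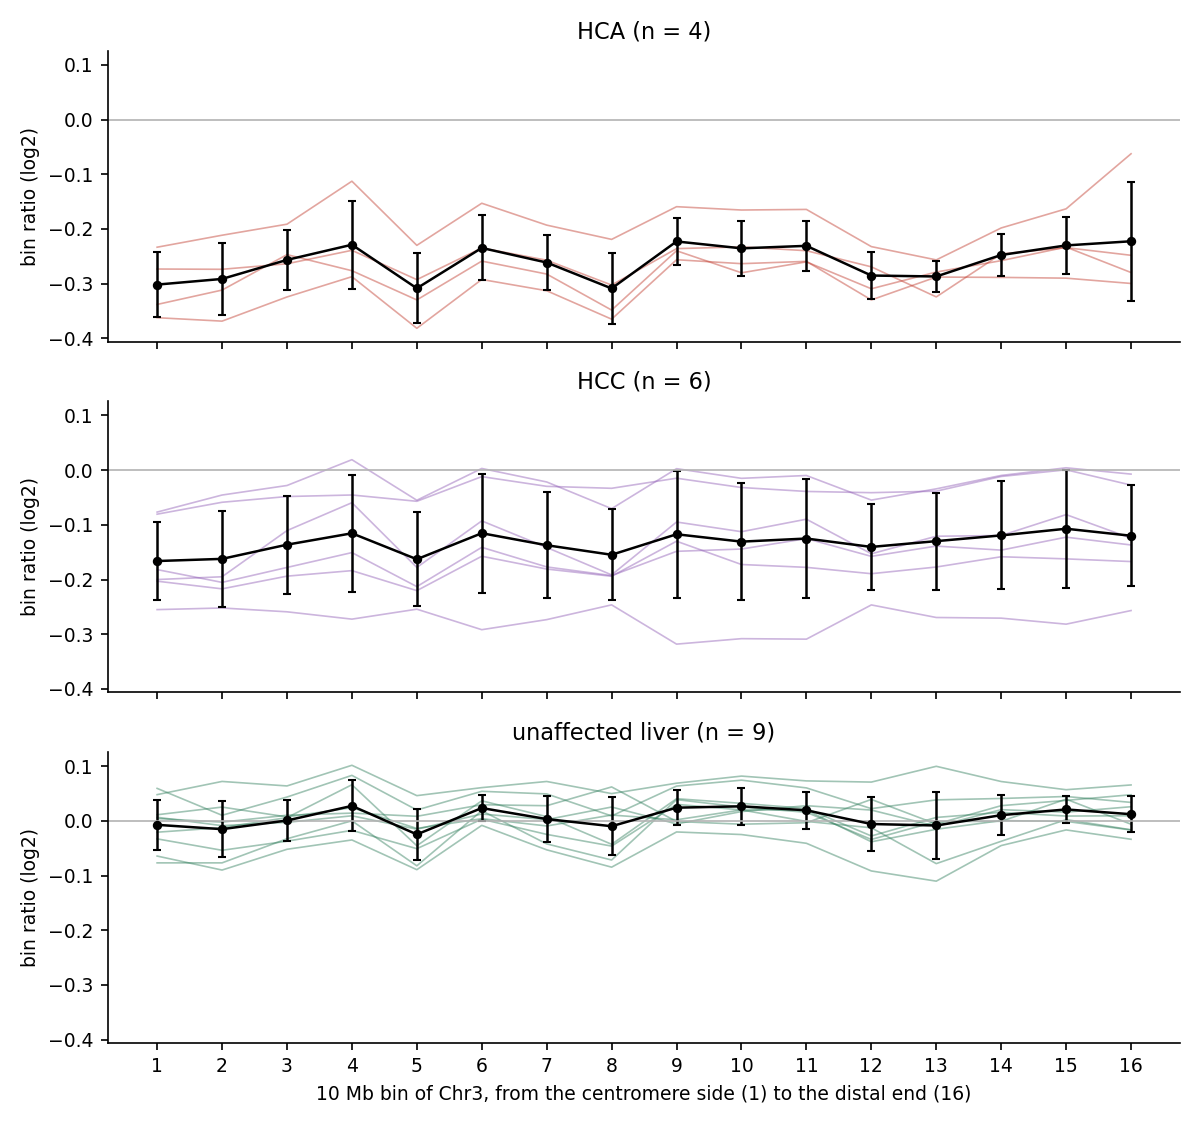
Ratios of the 16 bins of 10 Mb along Chr3 on the log2 scale, from the centromere side (1) to the distal end (16). Thin lines are samples, black points and bars are group means with SD (4 HCAs, 6 HCCs and 9 unaffected livers). The HCA means run between −0.31 and −0.22 and those of HCC between −0.17 and −0.11. The topmost HCA line, that of mouse 5884, rises in bin 16.

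The small relief of the profile was largely, though in HCA not wholly, shared by tumors and livers. Over the 16 bins, the HCA means and the liver means had a correlation of r = 0.93 (Spearman's rho 0.87), and the HCC means and the liver means had r = 0.85 (rho 0.80). The bin means also followed the number of probes in the bin, with r = 0.76 in HCA, r = 0.65 in HCC and r = 0.75 in liver. The difference between HCA and liver still followed it (r = 0.69, rho 0.70), whereas that between HCC and liver did not (r = −0.013, rho 0.14). These correlations are across bins of the same arrays, which are not independent, and are given as a description. Bin 5, at 40 to 50 Mb, was the lowest bin in liver, at −0.025 ± 0.046 (SD, n = 9), and among the lowest in HCA and HCC. The role of probe density or base composition in this relief was not tested.

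Subtraction of the own liver left all tumors below 0 along the whole chromosome. Each of the 10 tumors was below its own liver in all 16 bins, or in 160 of 160 pairs of tumor and bin, including HCC 6565, whose bins lay between −0.056 and −0.0044. Over all autosomes 52.5% of the pairs were below the own liver. The SD over the bins of a tumor was 0.013 to 0.033 in 9 tumors and 0.048 in HCA 5884. HCA 5901 had the most even loss, with bins from −0.23 to −0.18.

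**Figure D3:**
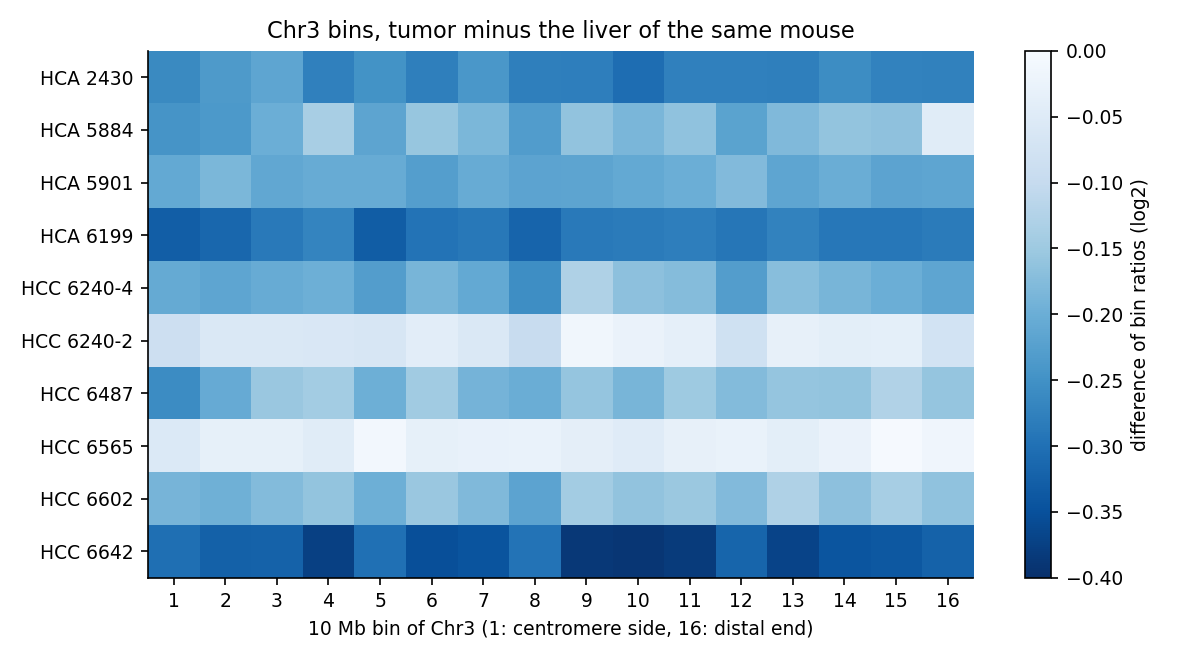
Difference between each tumor and the unaffected liver of the same mouse in the 16 bins of 10 Mb of Chr3, on the log2 scale, darker for a larger loss. All 160 cells are below 0. Rows differ in shade more than columns do, and bin 16 of HCA 5884 (−0.046) is lighter than the rest of its row.

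The evenness of the chromosome was compared between groups as the SD over the 16 bins of an array. HCAs had a mean of 0.038 ± 0.0094 (SD, n = 4), HCCs one of 0.028 ± 0.0083 (SD, n = 6), and unaffected livers one of 0.025 ± 0.0087 (SD, n = 9). HCA was higher than liver by 0.013 (exact two-sided permutation test, p = 0.035, adjusted p = 0.13) and HCC by 0.0024 (same test, exact p = 0.61, adjusted p = 0.72). The same SD was called for 0 of 19 autosomes in either comparison (0% and 0%). At an unadjusted p under 0.05 there were 5 autosomes for HCA and 1 for HCC, and limma called 0 in both. The difference for HCA passed only without the liver of mouse 2430, the least even of the livers at 0.042, where it was 0.015 (adjusted p = 0.048 by exact permutation). Without HCA 5884 it was 0.0090 (adjusted p = 0.33 by exact permutation).

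In the search for the largest single step along the chromosome, 9 of 10 tumors showed only small steps against the own liver, of 0.025 to 0.083. Steps of 0.012 to 0.053 were found in the arrays of the unaffected livers alone. The largest step among these 9 tumors was that of HCC 6487, which was lower by 0.083 on the centromere side of position 17270390. Its difference to the own liver was −0.23 in bins 1 and 2 and −0.16 in bins 3 to 16. HCA 5884 had −0.24 in bins 1 and 2 against −0.17 in bins 3 to 16, which include its high bin 16. Over bins 1 to 15 its mean was −0.19. Bin 1 was the lowest in both tumors (−0.24 in HCA 5884 and −0.26 in HCC 6487), but bin 8 came close to bin 2 in each. In the other tumors the first 2 bins departed from the rest by −0.032 to 0.032.

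The distal end beyond 156 Mb, which held 357 probes over 3.6 Mb, was compared with the 12686 probes of the rest. In HCA 5884 the distal end had a ratio of 0.079 and the rest of Chr3 −0.19, a contrast of 0.27. In the other 3 HCAs the contrast was −0.028 in mouse 2430, 0.012 in mouse 5901 and −0.018 in mouse 6199. It lay between −0.023 and 0.041 in HCC and between −0.029 and 0.047 in unaffected liver, with 0.0016 in the liver of mouse 5884. The distal ratio was thus close to that of the rest of the chromosome in 9 of 10 tumors. In HCCs 6240-2 and 6565 both were within the range of the livers, with distal ratios of −0.034 and −0.024, so that a loss at the end was not detectable there. In the HCA of mouse 5884 the distal end was slightly above every liver, of which the highest had 0.070 there.

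Between groups, the contrast did not pass. It was 0.058 ± 0.14 (SD, n = 4) in HCA and −0.0023 ± 0.025 (SD, n = 9) in liver, a difference of 0.060 (exact two-sided permutation test, p = 0.21, adjusted p = 0.29), and without HCA 5884 the difference was −0.0090. In HCC it was 0.0020 ± 0.021 (SD, n = 6), a difference of 0.0043 to liver (exact permutation test, p = 0.73, adjusted p = 0.87). For ends of the same length, 0 of 19 autosomes were called in either comparison (0% and 0%). At an unadjusted p under 0.05 there were 0 autosomes for HCA and 3 for HCC, and limma called 0 in both. The boundary at 156 Mb was taken from earlier results of the same arrays, so the contrast of HCA 5884 is a description of that tumor. Among all autosomes, the 76 contrasts of the HCAs reached at most this value, those of the livers (171) reached 0.14, and 2 of 114 in HCC were higher, both in HCC 6602, on Chr2 (0.27) and Chr12 (0.33).

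The step in HCA 5884 could be placed between neighbouring probes. Against the own liver, the best single step lay between the probe ending at position 156175680 and that starting at 156186173 of Chr3, with −0.18 on the centromere side and 0.097 on the distal side. On the tumor array alone it lay between 156150741 and 156161876, a few probes away, with −0.19 and 0.091. The segment without the loss thus spanned 3.41 or 3.44 Mb. In windows of 20 neighbouring probes, the tumor was above 0 in 1 of the 21 windows before the step, counted from 4 Mb before the boundary, and in 15 of the 17 windows beyond the step. Its own liver was above 0 in 8 of 21 and 6 of 17 of the same windows. The windows beyond the step had a median of 0.094 in the tumor and −0.023 in its liver.

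**Figure D4:**
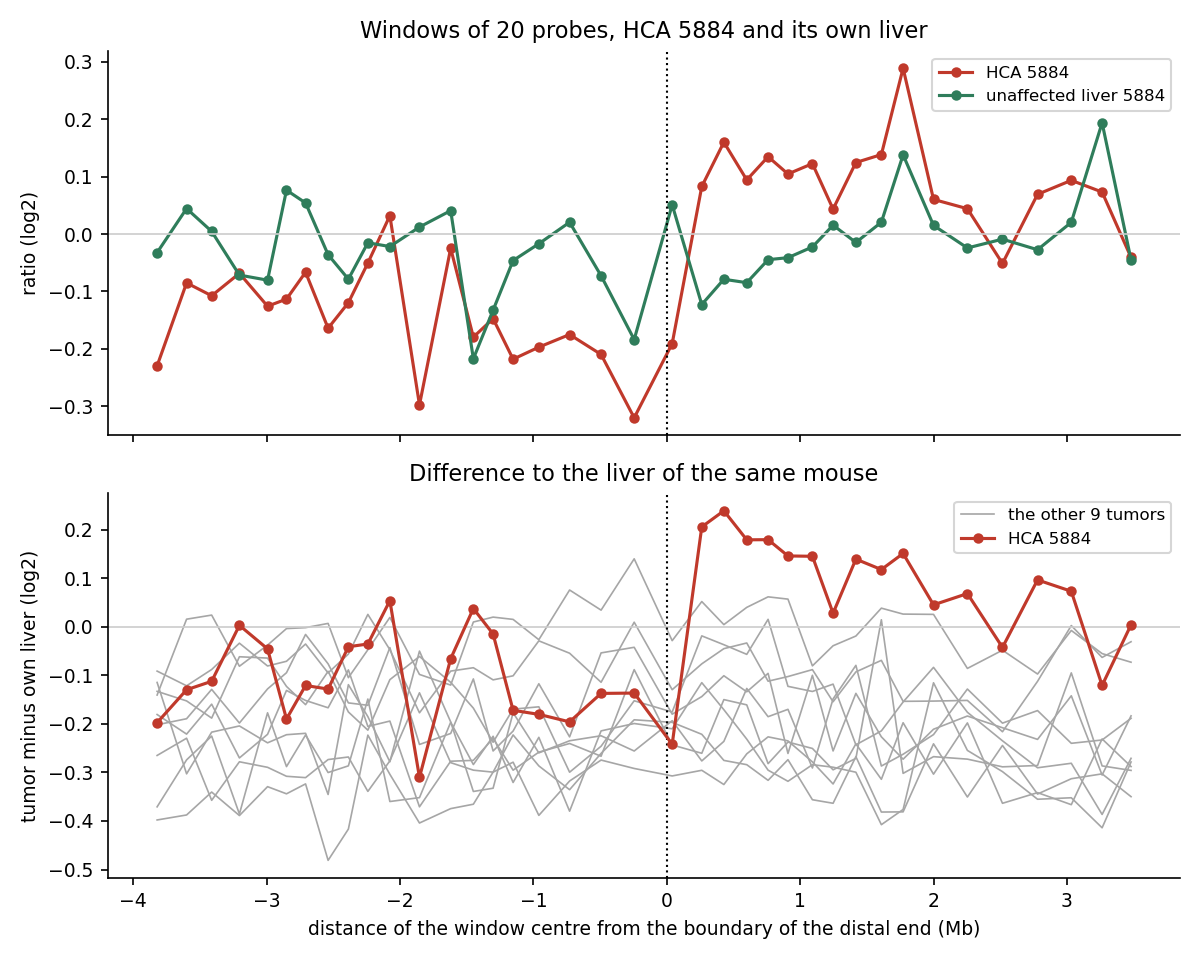
Windows of 20 probes near the distal end of Chr3, by the distance of the window centre from the boundary at 156 Mb (dotted line), on the log2 scale. Above, HCA 5884 (red) and the unaffected liver of the same mouse (green). Below, tumor minus own liver for HCA 5884 (red) and for the other 9 tumors (grey). HCA 5884 rises beyond the boundary to a median of 0.11 over 18 windows.

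After subtraction of the own liver, few smaller regions departed from the level of the chromosome. There were 652 windows of 20 probes, with a median size of 184.5 kb. Each was read as tumor minus own liver, relative to the median of that difference along Chr3. HCA 5884 had 8 windows more than 0.3 above this median, all 8 beyond the boundary, and 1 more than 0.3 below. The other tumors had 0 or 1 such window in each direction. Unaffected livers differed most from each other at positions 126026765 to 126197514. In this window the livers of mice 5884 and 5901, the p53(f/+) mice, had ratios of −0.49 and −0.52, their HCAs −0.82 and −0.78, and the other livers between −0.19 and 0.29. The low value was therefore present in tumor and liver of both mice, and the HCAs were lower again by 0.33 and 0.26.

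Chr3 was set beside Chr9, Chr12 and Chr13, the other autosomes that were lower in both tumor types. All 10 tumors were below their own liver on each of the 4 chromosomes. The difference ran from −0.35 to −0.032 on Chr3 (median −0.18), from −0.42 to −0.016 on Chr9 (median −0.16), from −0.41 to −0.011 on Chr12 (median −0.24) and from −0.38 to −0.10 on Chr13 (median −0.25). The order of the chromosomes changed from tumor to tumor. HCC 6565 had its loss on Chr9 (−0.28) and Chr13 (−0.24) and little on Chr3 (−0.032) and Chr12 (−0.011). HCC 6487 was lowest on Chr12 (−0.41) and had −0.016 on Chr9. Ranked from the lowest of the 19 autosomes, Chr3 was at 1 in HCA 5884, 2 in HCAs 5901 and 6199 and 5 in HCA 2430. In the HCCs it was at 3 in 6602 and 6642, 4 in 6487, 5 in 6240-4 and 6565 and 8 in 6240-2. All bins were below the own liver in 10 tumors for Chr3, 8 for Chr9, 9 for Chr12 and 10 for Chr13. Over all 19 autosomes, all bins were below in 73 of 190 pairs of tumor and autosome and above in 68. The median SD over bins was 0.023 on Chr3, 0.029 on Chr9, 0.031 on Chr12 and 0.021 on Chr13, and differences in evenness between these chromosomes were not tested.

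**Figure D5:**
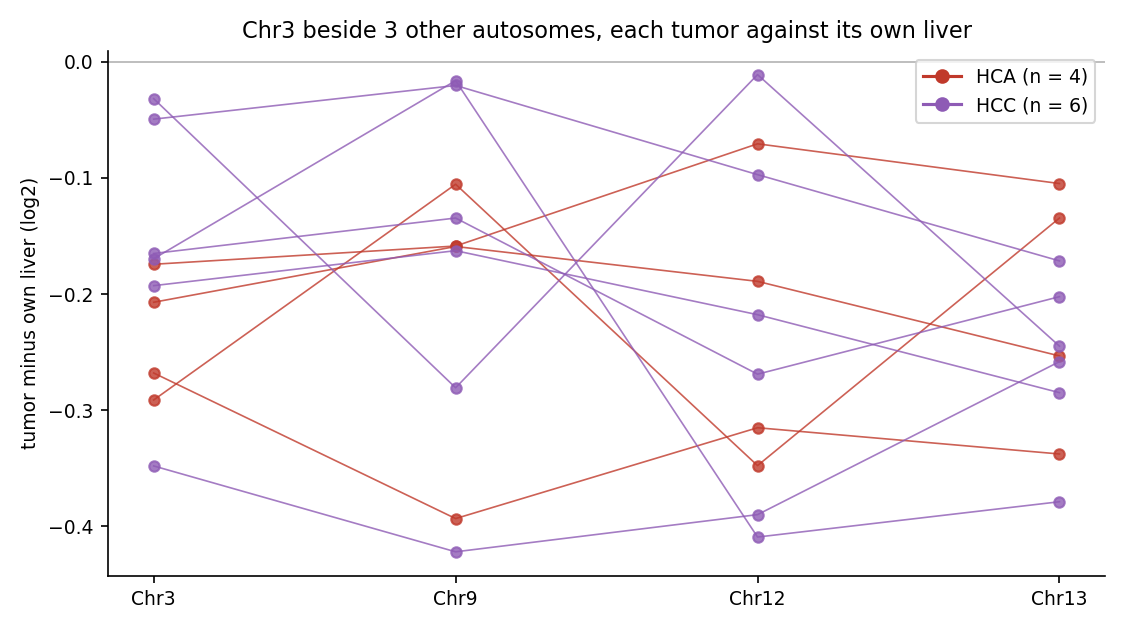
Difference between each tumor and the unaffected liver of the same mouse on Chr3, Chr9, Chr12 and Chr13, on the log2 scale. Lines join the values of a tumor (red, 4 HCAs; purple, 6 HCCs). All 40 points are below 0, and the lines cross.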

How the data were processed

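Genomic DNA was hybridized to Agilent mouse CGH arrays with sample DNA in Cy5 and control DNA in Cy3. The deposited scanner files hold the log10 ratio of the processed signals, made by the authors with Feature Extraction 10.5.1.1 with background subtraction and linear dye normalization, and the median intensity of each spot and its local background. Flags for outliers and for spots well above background were read as other deposited columns. Ratios were converted to log2, control spots and outliers were left out, spots of a probe were averaged, and each array was centred on its autosomal median. A chromosome or bin ratio is the mean of its probes, and a bin needed 50 probes. Positions are those of the files (mm9).

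Groups followed the labels. Group means were compared over all assignments of the samples (exact permutation, two-sided), with Benjamini-Hochberg adjustment over the 19 autosomes or the 257 bins and a threshold of 0.05. p-values measure the spread between samples. Each tumor shares its mouse with a liver of the liver group, and mouse 6240 gave 2 HCCs, so the samples are not all independent, and precision is limited by how many arrays there were. The steps were tested on simulated data. Python 3.11.15, numpy 2.4.6, R 4.3.3 and limma 3.58.1 were used. The members, the boundary at 156 Mb, the gene list and the chromosomes for comparison were chosen with earlier results of these data known. Of each group of bins the lowest, the highest and the distal one were named. The listed genes were to be given where the files pair them with probes. This was not so for any of them.

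Tumor and liver were paired by mouse. The deviations of a tumor and its own liver from their group means over the autosomal bins had correlations of −0.074 to 0.27 (median 0.17), 6 of 10 above 0.1. Alternatives covered background correction, normalization, centring, probe filters, bin and end sizes, limma with and without blocks (mouse, scan day), sign flips, permutation within scan days, females only, 1 value for mouse 6240 and each sample left out. Scan days were taken from the file headers.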

Additional observations from a re-analysis of the deposited data

Results flagged for a closer look

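The contrast between the distal end and the rest of Chr3 in HCA 5884, 0.27 on the log2 scale, lay far from the other 3 HCAs, which were between −0.028 and 0.012. Its gap to the nearest HCA was 86.3% of the range of the group. In HCC 6487 the SD over the 10 Mb bins was 0.043, whereas the other 5 HCCs were between 0.021 and 0.029, a gap of 64.7% of the range. Of 57 sets of values examined in this way (3 groups by the chromosome, the contrast, the SD and 16 bins), these 2 stood out. Chance alone flags about 1 in 20, so the count of flags is no more than chance would give. The sets are not independent, since the bins make up the chromosome, and the count gives no verdict on either flag. The boundary of the distal end was taken from the step of HCA 5884 in the same arrays, so its value is a description and cannot be set against that rate.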

How the results depend on the processing

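Of 281 values recomputed under the alternatives, 257 kept their direction and their side of the threshold (shares of bins: stayed within 1.5 times the reported share). The exact sign flips with the own liver as a replicate block cannot reach the threshold with 4 or 5 mice. They gave −0.24 for the Chr3 ratio in HCA against liver, −0.17 in HCC and 0% of the bins in both. limma with the mouse as a replicate block kept the calls of both Chr3 ratios, 100% of the bins in HCA and 93.8% in HCC. For HCC against liver, normexp background correction gave −0.062 and 0% of the bins, no centring −0.12 (adjusted p = 0.053 by the exact permutation test) and 6.25%, permutation within scan days −0.16 and 0%, and females alone −0.11 and 0%. The causes were not tested. Fewer assignments were possible within scan days and in females alone. With the scan day as a block in limma, HCC against liver gave −0.15 and 100% of the bins. Under normexp, the X ratio of female livers fell from 0.95 to 0.31. HCC against HCA, 0.12 in both, passed with limma without a block and not with the scan day as a block (0.10). The small distal contrast of HCC turned to −0.0018 with normexp, −0.020 with the last 2 Mb as the end, −0.0035 and −0.00074 with the mouse as a replicate block (limma and sign flips), −0.0018 within scan days and −0.0062 in females. The bin SD of HCC against liver turned to −0.0029 in females.

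Leaving out 1 sample at a time gave −0.29 to −0.25 for the Chr3 ratio in HCA, −0.16 to −0.11 in HCC and 0.10 to 0.15 for HCC against HCA, with no change of call, and 100% and 93.8% to 100% of the bins in HCA and HCC. The distal contrast ran from −0.0090 (without HCA 5884) to 0.089 in HCA and from −0.0035 (without HCC 6642) to 0.010 in HCC. The bin SD ran from 0.0090 to 0.016 in HCA, where it passed without the liver of mouse 2430 (0.015), and from −0.00079 (without HCC 6487) to 0.0045 in HCC. For HCA against liver, limma called 8 autosomes in place of 15, and for HCC against HCA 54 bins in place of 0. Losses of the size seen in HCCs 6240-2 and 6565 were within the spread of the livers.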

Other observations

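The proximal and distal parts of Chr3 gave few other departures. On the arrays of the tumors alone, without subtraction of the own liver, the largest step lay between 17.4 and 17.7 Mb in HCA 2430 (0.060), HCC 6487 (0.093) and HCC 6565 (0.052). It lay at 17.3 Mb in the unaffected liver of mouse 6565 (0.041), so that a low start of the chromosome was seen in tumor and liver of that mouse. In each of the 4 arrays the centromere side was the lower one. The liver of mouse 2430 was at −0.077 in bin 1 and in bin 2, against a Chr3 ratio of −0.010. That of mouse 6487 was at 0.059 and 0.010 in these bins, against a Chr3 ratio of 0.047.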
